A study of Mus musculus with 13 samples.

Results

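The genes described here are 42 nuclear genes whose products maintain, transcribe or process the RNA of mitochondrial DNA (mtDNA), or supply the nucleotides and transcription factors that this work needs. The rule that chose them names genes by role and uses no measured value, although it was written with earlier results of these data known. All 42 were found among the 47937 genes of the deposited table. They fall into 6 roles: 7 genes of mtDNA transcription, 10 of mtDNA replication and the nucleoid, 6 of mitochondrial nucleotide supply, 11 of RNA stability, polyadenylation and decay, 3 of tRNA end processing and 5 nuclear transcriptional regulators. RNA was sequenced in bulk from freshly sorted, untreated double negative (DN) DN3 and DN4 thymocytes of C57BL/6 mice aged 6 weeks. The control mice were WT;Lck-Cre+ (WT) and the others Opa1fl/fl;Lck-Cre+ (KO), so that both carried a Cre recombinase driven by the Lck promoter, which acts in T lineage cells. There were 3 DN3 and 4 DN4 libraries of WT mice and 3 of each stage of KO mice, 13 libraries of 7 mice in all, with both stages sequenced in 6 of the mice. The question asked of these genes was whether they moved with the RNA that mtDNA itself encodes, whose share of counts was lower in KO than in WT DN4 cells.

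Mitochondrial DNA is packed into nucleoids by TFAM and is copied by the polymerase POLG with the helicase TWNK and the single-strand binding protein SSBP1. POLRMT transcribes both strands into long RNAs with TFAM and TFB2M at the promoters and TEFM as elongation factor, and these RNAs are then cut at the tRNAs, polyadenylated, protected by the LRPPRC and SLIRP pair or degraded. All of these proteins are encoded in the nucleus, and the regulators NRF1, GABPA, ESRRA and the coactivators of the PGC-1 family are known for driving many of their genes. OPA1, the target of the knockout, is a dynamin-related protein of the inner mitochondrial membrane that shapes the cristae and is needed to keep mtDNA.

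Total counts ran from 5926848 to 14148661 per library, with a median of 10023044. The members held between 18 and 2679 counts in a library, so that all 42 passed the filter on low counts in every comparison. One DN3 library, of mouse WT05, stood apart: ribosomal RNA-like genes took 34.4% of its counts against 0.350 to 1.45% in the other 12, and its values are named where a result rests on them. The gene-level Opa1 count does not separate the exons that Cre removes from the others, and so does not check the genotype labels. It was 88.4 to 93.7 CPM (counts scaled to a common library total) in KO and 90.9 to 112 CPM in WT DN3 cells. In DN4 cells it was 76.9 to 87.8 CPM in KO and 85.0 to 93.6 CPM in WT mice. Exon-level counts were not examined. The paper reports reduced OPA1 protein by immunoblot of thymocyte lysates. The WT mice WT40 and WT46 had 0 to 2 counts of the X-inactivation RNA Xist, whereas every library of the other 5 mice had at least 10672.

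The regulators that this gene set contains have known binding motifs, and 35 of the 42 members had a promoter window in the RefSeq table (assembly GRCm38.p6; 250 bases before to 50 bases after the start). The NRF1 motif was searched as GCGCANGCG, the ETS family motif that GABPA binds as CCGGAAGT and the ESRRA motif as TCAAGGTCA, on both strands. The NRF1 letters were found in 7 of 35 members (20%) and in 7.03% of all 27025 genes with a window, and the GABPA letters in 6 of 35 (17.1%) and in 4.31% of all genes. The ESRRA letters were in 0 of 35 members and in 0.47% of all genes. No member had both the NRF1 and the GABPA letters. NRF1 matches were in Esrra, Fastkd3, Grsf1, Lig3, Polrmt, Supv3l1 and Tfb2m, and GABPA matches in Fastkd5, Polg, Tefm, Tfam, Trmt10c and Twnk. Fastkd3, which was also called between the stages in WT mice, held 3 NRF1 matches, which are not printed below. The following 30-base stretches, given 5′ to 3′ on the gene's strand with the match in capitals, are those of 5 core factors (Tfam, Polrmt, Tfb2m, Twnk and Polg) and of the members Tefm, Lig3 and Esrra, which were called between the stages; a match describes the letters and not a bound site.
Tefm, GABPA letters, chr11:80142144-80142173, minus strand: agcacacgaaaCCGGAAGTtgaggaggaac
Polg, GABPA letters, chr7:79466293-79466322, minus strand: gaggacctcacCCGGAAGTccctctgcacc
Twnk, GABPA letters on the other strand, chr19:45006436-45006465, plus strand: actaaccggtgACTTCCGGttccggggttg
Tfam, GABPA letters, chr10:71238073-71238102, minus strand: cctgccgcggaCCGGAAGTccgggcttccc
Polrmt, NRF1 letters on the other strand, chr10:79746567-79746596, minus strand: ctgcaggcggCGCGTGCGCgtgcgcactgc
Tfb2m, NRF1 letters on the other strand, chr1:179546245-179546274, minus strand: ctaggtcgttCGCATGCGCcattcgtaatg
Lig3, NRF1 letters on the other strand, chr11:82781127-82781156, plus strand: tcggttactgCGCCTGCGCcctgcctccgg
Esrra, NRF1 letters, chr19:6921930-6921959, minus strand: acaggaggccGCGCACGCGtgtgtatcgac

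The match began 9 bases before the start of Tefm, 38 before that of Polg, 47 before that of Tfam, 5 before that of Polrmt and 141 before that of Esrra, and it began at base 13 of Tfb2m and base 29 of Lig3. Polrmt held a second NRF1 match, which overlaps the one in capitals, begins at base 2 of the gene and shares its first 3 letters with it. In Twnk it lay 111 bases before the start in one of the windows of this gene. Tefm, Twnk and Polg, whose windows share the same 8 letters, did not change in one direction between the stages, as given below.

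Per length, in RPKM (the CPM value divided by the exon length in kilobases), the members' mean levels over the 13 libraries differed widely. The highest was Hsd17b10, a subunit of mitochondrial RNase P, at 45.6 RPKM, followed by Atad3a, a nucleoid-associated membrane ATPase, at 32.7 and Grsf1, an RNA granule protein, at 29.1. Of the transcription factors, Tfam had 19.2 RPKM, Polrmt 13.3, Tefm 11.1, Tfb2m 8.75, Mterf3 8.36, Mterf4 3.63 and Tfb1m 3.21. Of the replication factors, Lig3 had 12.6 RPKM, Twnk 12.4, Polg 11.3, Ssbp1 8.50 and Polg2, the accessory subunit of the polymerase, 3.75. The lowest levels were those of Ppargc1b, at 3.16 RPKM, and Rrm2b, at 2.24 RPKM. The order was not the same in each group for Polg and Twnk: Twnk was above Polg in DN3 cells (16.3 ± 1.65 against 6.85 ± 0.712 RPKM in WT, SD, n = 3) and below it in DN4 cells (9.54 ± 0.894 against 14.41 ± 0.6254 RPKM in WT, SD, n = 4).

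**Figure D1:**
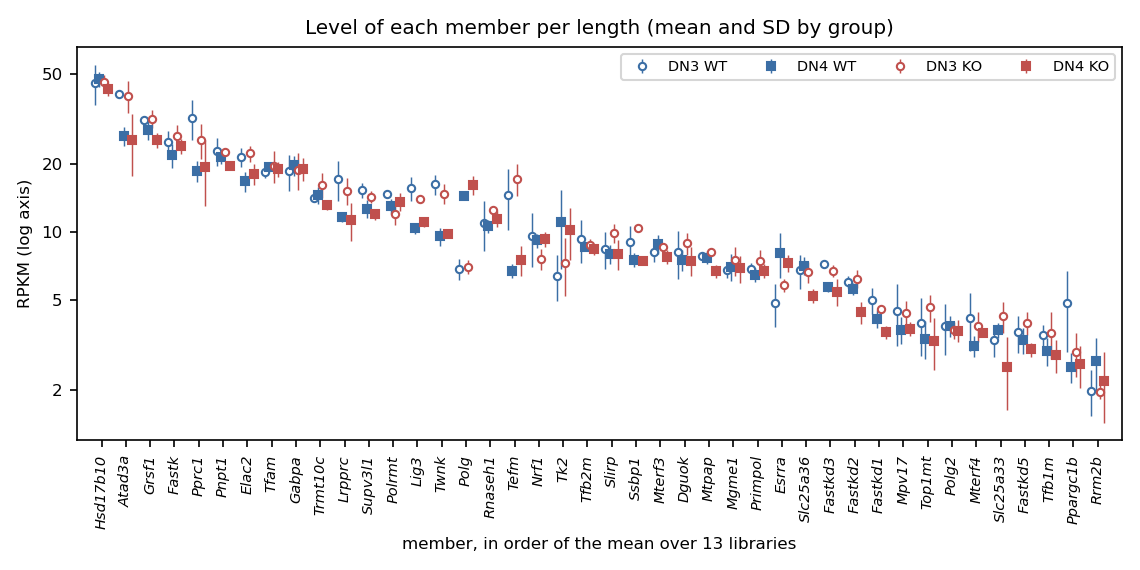
Mean level of each of the 42 members in RPKM (log axis) with its SD in each group (DN3 WT, DN3 KO and DN4 KO n = 3, DN4 WT n = 4), ordered by the mean over all 13 libraries. Hsd17b10 is highest at 45.6 RPKM and Rrm2b lowest at 2.24 RPKM, and the DN3 and DN4 symbols stand apart for Polg, Twnk and Tefm.

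The DN3 and DN4 stages were compared first, in each genotype. In WT mice 2 of the 42 members were higher in DN4 than in DN3 cells, against 13.4% of all 12691 genes tested, and 8 were lower, against 9.43% of all genes (edgeR quasi-likelihood test, Benjamini-Hochberg adjusted p under 0.05 over all genes tested). In shares, 4.76% of members rose and 19.0% fell. In KO mice 1 member was higher, against 11.2% of all 12580 genes, and 5 were lower, against 7.34%; 2.38% of members rose and 11.9% fell. Polg rose, and Tefm, Twnk and Lig3 fell, in both genotypes. The WT counts depended on the scaling, since the WT05 DN3 library had a TMM scaling factor of 0.577: scaled by library totals, 1 member (Polg) was higher and 0 were lower, and without that library 1 was higher and 9 were lower.

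Because both stages came from the same mice, the fit was also made with the mouse as a block, which used 3 mice a genotype. In KO mice it called 3 members higher and 15 lower, or 7.14% and 35.7% of members against 18.9% and 16.9% of all genes. In WT mice it called 2 members higher and 5 lower, 4.76% and 11.9% of members against 12.1% and 6.53% of all genes. The members' median log2 fold change was -0.15 in WT and -0.28 in KO mice in the fit without the block, beside -0.03 and -0.02 over all genes tested. Counted by sign alone, 30 of 42 members were lower in WT DN4 cells (71.4%, against 52.7% of all genes tested) and 36 of 42 in KO DN4 cells (85.7%, against 52.5%). The members' WT median varied with the scaling and with 1 library. Without the WT05 DN3 library it was -0.23, and with library totals it was -0.00, beside 0.16 over all genes. With library totals 21 of 42 members were lower in WT mice (50%, against 34.7% of all genes). In KO mice the count with library totals was 36 of 42 as well (85.7%, against 53.1% of all genes). In bulk RNA, fewer cells of a type and less RNA per cell cannot be told apart.

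Markers of other cells moved with the stage. The 5 B cell markers reported here (Cd79a, Cd79b, Ebf1, Ms4a1 and Pax5) all rose in both genotypes. Their summed level went from 20.7 to 49.8 CPM in DN3 to 245 to 2139 CPM in DN4 libraries of WT mice and from 20.8 to 39.3 CPM to 165 to 1279 CPM in KO mice. The 4 reported markers of cells later than DN4 (Cd2, Cd4, Cd8a and Cd8b1) all rose as well. Their summed level went from 37.5 to 62.5 CPM to 308 to 1673 CPM in WT and from 69.7 to 103 CPM to 756 to 2605 CPM in KO mice. Of the 7 DN3 markers, Il2ra, Ptcra, Hes1 and Notch3 fell in both genotypes. The summed level of all 7 went from 2411 to 2901 CPM to 464 to 1089 CPM in WT and from 2094 to 2910 CPM to 778 to 1960 CPM in KO mice. The 20 markers of dividing cells summed to 5651 to 8519 CPM in DN3 and 4478 to 7179 CPM in DN4 libraries of WT mice and to 4818 to 6831 CPM and 5239 to 7911 CPM in KO mice, and 0 of 20 passed the test in either genotype. Of the 5 NK and innate lymphoid markers, Klrb1c and Klrd1 rose in both genotypes and Nkg7 in WT mice. They summed to 13.7 to 44.3 CPM in DN3 and 76.0 to 99.8 CPM in DN4 libraries of WT mice and 23.9 to 42.7 CPM and 44.1 to 66.2 CPM in KO mice. Of the 5 gamma delta T markers, 2 rose and 2 fell in WT mice and 2 fell in KO mice. They summed to 984 to 1701 CPM in DN3 and 859.9 to 1940 CPM in DN4 libraries of WT mice. In KO mice they summed to 1372 to 1856 CPM in DN3 and 659 to 1005 CPM in DN4 libraries. Lyz2 was called lower among the 6 myeloid markers in both genotypes. They summed to 23.4 to 31.5 CPM in DN3 and 12.0 to 17.6 CPM in DN4 libraries of WT mice and to 22.6 to 26.1 CPM and 11.7 to 18.1 CPM in KO mice. Epcam was called lower among the 5 stroma markers in both genotypes. They went from 16.7 to 48.1 CPM to 9.52 to 11.9 CPM in WT and from 28.3 to 58.4 CPM to 10.4 to 12.1 CPM in KO mice. Irf8 rose among the 3 plasmacytoid dendritic markers in both genotypes. They summed to 66.9 to 95.3 CPM and 61.6 to 272 CPM in WT and to 66.3 to 73.9 CPM and 64.6 to 183 CPM in KO mice. The 6 erythroid markers stayed at or below 6.18 CPM in sum. None of these marker lists held a defining marker at 0 in every library. Their part in the results for the 42 genes was not tested.

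**Figure D2:**
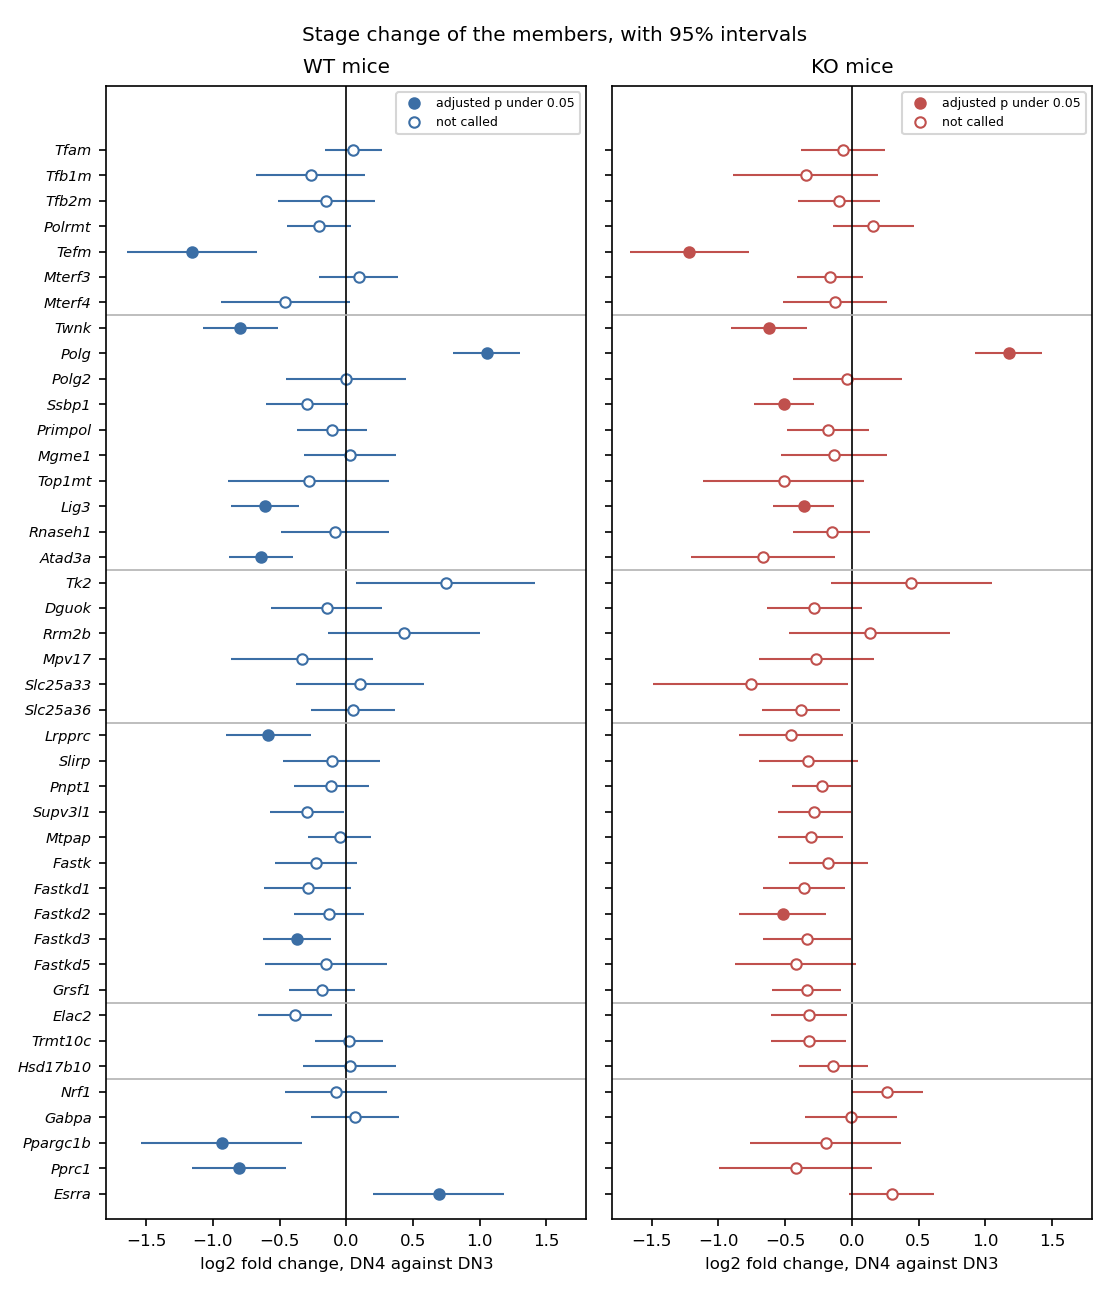
Log2 fold change of DN4 against DN3 for each member in WT mice (left) and KO mice (right), from separate edgeR fits; lines are 95% intervals, filled points have an adjusted p under 0.05, and grey lines part the roles. Polg lies near 1 in both panels, Tefm lies below -1 in both, and most other members lie between -0.5 and 0.

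Among the transcription genes, Tefm, the elongation factor of POLRMT, was the only one of 7 that passed the test. It had 15.2 (WT05), 25.01 and 28.6 CPM in WT DN3 cells and 10.7, 10.9, 11.1 and 9.52 CPM in WT DN4 cells. In KO mice it had 26.3, 23.0 and 31.6 CPM in DN3 and 10.2, 11.4 and 13.8 CPM in DN4 cells. The DN4 libraries were below every DN3 library in each genotype, the closest being the DN3 library of WT05. Tefm fell 2.23-fold in WT (log2 fold change -1.16, SE 0.21, adjusted p = 0.00609) and 2.33-fold in KO mice (-1.22, SE 0.19, adjusted p = 0.00477).

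The other transcription genes did not pass the test between the stages. Tfam, which packs and bends mtDNA, was at 82.1 ± 5.003 CPM in WT DN3 (SD, n = 3) and 86.4 ± 2.49 CPM in WT DN4 cells (SD, n = 4), a log2 difference of 0.05 with a 95% interval from -0.16 to 0.26. Its KO libraries held 70.7, 97.3 and 93.4 CPM in DN3 and 76.9, 89.7 and 86.0 CPM in DN4 cells, so that the groups overlapped. Polrmt, the RNA polymerase itself, had 69.5, 69.7 and 67.2 CPM in WT DN3 and 58.2, 55.9, 62.1 and 67.1 CPM in WT DN4 cells, against 61.6, 50.2 and 55.9 CPM and 59.1, 61.6 and 70.6 CPM in KO mice. The WT groups did not overlap, by a margin of the 67.1 and 67.2 CPM of one mouse, and the KO groups overlapped (log2 -0.20, SE 0.10, adjusted p = 0.204 in WT; 0.16, SE 0.13, adjusted p = 0.435 in KO).

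Tfb2m, the promoter-melting partner of POLRMT, had 20.2, 31.2 and 26.7 CPM in WT DN3, 23.3, 24.3, 24.7 and 24.1 CPM in WT DN4, 24.6, 23.3 and 26.1 CPM in KO DN3 and 24.2, 22.0 and 24.3 CPM in KO DN4 cells. All 4 groups overlapped. Mterf4, which works in mitochondrial ribosome assembly, had a log2 difference of -0.46 (SE 0.21, adjusted p = 0.161) in WT mice; leaving out the WT05 DN3 library, with 14.6 CPM against 25.8 and 25.3 CPM, gave -0.67 and an adjusted p of 0.0159, and leaving out the WT46 or the WT48 DN3 library gave -0.32 and -0.35 (adjusted p = 0.407 and 0.378). Tfb1m, a methyltransferase of mitochondrial ribosomal RNA, and Mterf3, a transcription repressor, were not called in either genotype.

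Among the 10 replication and nucleoid genes, Polg was higher and Twnk and Lig3 were lower in DN4 cells of both genotypes. Polg, the catalytic subunit of the mtDNA polymerase, had 82.1, 71.4 and 67.3 CPM in WT DN3 and 151, 161, 147 and 159 CPM in WT DN4 cells. In KO mice it had 71.6, 72.8 and 81.2 CPM in DN3 and 192, 162 and 165 CPM in DN4 cells. Every DN4 library was above every DN3 library. Polg rose 2.07-fold in WT (log2 1.05, SE 0.11, adjusted p = 0.000416) and 2.26-fold in KO mice (1.17, SE 0.11, adjusted p = 0.000578).

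Twnk, the mtDNA helicase that works with POLG at the replication fork, went the other way. It had 67.8, 70.3 and 57.8 CPM in WT DN3 and 36.3, 38.9, 43.1 and 34.9 CPM in WT DN4 cells, and 65.9, 54.1 and 57.7 CPM in KO DN3 and 38.0, 40.9 and 38.8 CPM in KO DN4 cells. The stages did not overlap in either genotype, and the log2 fold change was -0.79 (SE 0.12, adjusted p = 0.00293) in WT and -0.62 (SE 0.12, adjusted p = 0.0114) in KO mice. Lig3, the DNA ligase shared by nucleus and mitochondria, had 129, 109 and 103 CPM in WT DN3 and 72.0, 75.4, 81.4 and 73.2 CPM in WT DN4 cells, and 102, 104 and 98.1 CPM in KO DN3 and 77.2, 84.7 and 78.8 CPM in KO DN4 cells. Again no DN4 library reached a DN3 library. Its log2 fold change was -0.61 (SE 0.11, adjusted p = 0.0058) in WT and -0.36 (SE 0.10, adjusted p = 0.0397) in KO mice, and the KO call was lost when any 1 of the 6 libraries was left out.

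**Figure D3:**
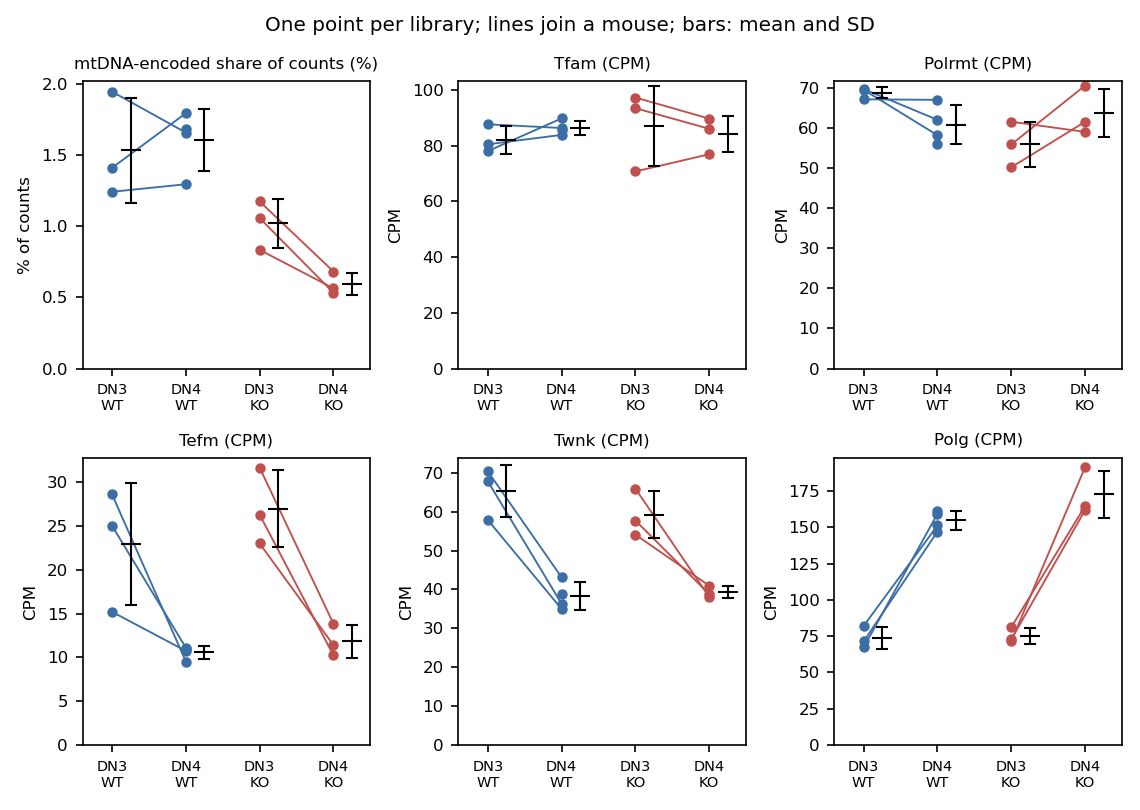
The share of counts on the 13 mtDNA-encoded protein-coding genes (%) and the levels of Tfam, Polrmt, Tefm, Twnk and Polg (CPM) in each library, all axes from 0; points are libraries, lines join the stages of a mouse (blue WT, red KO) and bars give the group mean and SD. The share falls from DN3 to DN4 in all 3 KO mice, while Tefm and Twnk fall and Polg rises in all 6 mice with both stages.

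Atad3a had 152, 154 and 153 CPM in WT DN3 and 87.9, 100.2, 111 and 100.6 CPM in WT DN4 cells, and 137, 136 and 179 CPM in KO DN3 and 63.5, 104 and 121 CPM in KO DN4 cells. The stages did not overlap in either genotype, but the KO DN4 libraries spread widely. It fell in WT (log2 -0.64, SE 0.11, adjusted p = 0.00375); in KO mice the difference was -0.67 (SE 0.23, adjusted p = 0.0887), and with the mouse as a block it was -0.71 with an adjusted p of 0.00387. Ssbp1 had 84.2, 90.4 and 85.4 CPM in KO DN3 and 59.1, 63.0 and 63.7 CPM in KO DN4 cells and fell in KO mice (log2 -0.51, SE 0.10, adjusted p = 0.0100). In WT mice it had 61.1 (WT05), 85.8 and 79.6 CPM in DN3 and 60.2, 62.6, 69.3 and 59.2 CPM in DN4 cells, which overlapped (-0.30, SE 0.13, adjusted p = 0.156); without the WT05 DN3 library the WT value was -0.43 with an adjusted p of 0.0248, and without the WT46 DN3 library it was -0.19 with an adjusted p of 0.420. Polg2, Primpol (a primase-polymerase), Mgme1 (a nuclease that trims mtDNA ends), Top1mt (the mitochondrial topoisomerase) and Rnaseh1 (which removes RNA primers) passed the test in neither genotype.

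Several of these genes overlap the exons of a gene on the other strand, and 20 of the 42 members do so in all. The libraries were made with a stranded kit, but the strand setting of the counting is not given in the sources used here, so that reads of such partners cannot be told apart. For the members called without the block, the partners Fanci (beside Polg), Mrpl43 (Twnk), Rffl (Lig3), Ldb1 (Pprc1) and Trmt112 (Esrra) were not called between the stages in either genotype, with log2 fold changes between -0.24 (Fanci, WT) and 0.37 (Rffl, WT).

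The 6 genes of nucleotide supply gave no call between the stages in the fit without the block. Tk2, the mitochondrial thymidine kinase, had 17.5, 28.1 and 23.0 CPM in WT DN3 and 36.3, 28.7, 31.2 and 61.6 CPM in WT DN4 cells (log2 0.74, SE 0.29, adjusted p = 0.105), without overlap. It had 34.6, 21.9 and 21.5 CPM in KO DN3 and 43.8, 39.1 and 25.7 CPM in KO DN4 cells (0.44, SE 0.26, adjusted p = 0.281), with overlap, and with the mouse as a block the KO value was 0.45 with an adjusted p of 0.0376. Without the block, leaving out the DN4 or the DN3 library of mouse KO45 gave 0.26 and 0.73. Within a mouse Tk2 was higher in DN4 than in DN3 cells in 6 of 6 mice. The pyrimidine carriers of the inner membrane, Slc25a33 and Slc25a36, were called lower in KO mice with the mouse as a block (-0.81, adjusted p = 0.0309, and -0.38, adjusted p = 0.0225), and their levels are given further on. Dguok (deoxyguanosine kinase), Rrm2b (the ribonucleotide reductase subunit of resting cells) and Mpv17 (an inner membrane protein whose loss depletes mtDNA) were not called in any fit.

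All 11 genes of RNA stability, polyadenylation and decay had a negative log2 fold change in both genotypes, from -0.58 to -0.05 in WT and from -0.52 to -0.18 in KO mice, with medians of -0.18 and -0.33. With library totals 6 of the 11 were negative in WT mice, against 34.7% of all genes, and 11 of 11 in KO mice, against 53.1%. In WT mice 2 of the 11 passed the test, Lrpprc and Fastkd3, and in KO mice 1, Fastkd2. Lrpprc, which with SLIRP stabilises mitochondrial messenger RNA, had 178 (WT05), 119 and 142 CPM in WT DN3 and 100.4, 98.9, 104 and 92.3 CPM in WT DN4 cells, and 109.7, 134 and 145 CPM in KO DN3 and 74.8, 109.2 and 103 CPM in KO DN4 cells. The stages did not overlap in either genotype, in KO mice by a margin under 1 CPM. It fell in WT mice (log2 -0.58, SE 0.14, adjusted p = 0.0188) and had -0.46 (SE 0.17, adjusted p = 0.103) in KO mice; with the mouse as a block the WT call was lost and the KO value was called (-0.47, adjusted p = 0.00367). Leaving out the WT05 DN3 library gave -0.43 in WT mice, and the WT call was lost in 2 of the 7 fits that left out a library.

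The FASTK family proteins bind and process particular mitochondrial RNAs. Fastkd3 had 38.0, 35.8 and 39.0 CPM in WT DN3 and 30.4, 30.3, 30.3 and 27.3 CPM in WT DN4 cells, with no overlap (log2 -0.37, SE 0.11, adjusted p = 0.0441), but the call was lost when any 1 of the 7 libraries was left out and with the mouse as a block. Its KO libraries held 32.7, 35.3 and 37.1 CPM in DN3 and 24.8, 27.5 and 32.5 CPM in DN4 cells, without overlap (-0.33, SE 0.14, adjusted p = 0.146). Fastkd2 had 34.3, 34.7 and 40.4 CPM in KO DN3 and 22.6, 27.5 and 27.5 CPM in KO DN4 cells, with no overlap (-0.52, SE 0.14, adjusted p = 0.0392), and was called in 1 of the 6 fits that left out a library. In WT mice the Fastkd2 levels overlapped, at 33.0, 35.5 and 37.4 CPM in DN3 and 35.4, 33.2, 30.9 and 32.0 CPM in DN4 cells (-0.13, SE 0.11, adjusted p = 0.456). With the mouse as a block, Fastkd3 (-0.34, adjusted p = 0.0497), Grsf1 (-0.34, adjusted p = 0.0115) and Mtpap, the mitochondrial poly(A) polymerase (-0.31, adjusted p = 0.0350), were also called lower in KO mice. Slirp, Pnpt1 and Supv3l1 (the partners of the mitochondrial degradosome), Fastk, Fastkd1 and Fastkd5 passed the test in neither genotype.

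Of the 3 genes of tRNA end processing, none passed the edgeR test without the block when each genotype was fitted on its own. Elac2, which cuts the 3′ ends of tRNAs, had a log2 fold change of -0.39 in WT (edgeR adjusted p = 0.0539) and -0.32 in KO mice. DESeq2, limma-voom and the edgeR fit of all 13 libraries called Elac2 lower in WT mice. Trmt10c, a subunit of RNase P, had 0.02 in WT and -0.32 in KO mice. With the mouse as a block both were called in KO mice (Elac2 -0.33, adjusted p = 0.0321; Trmt10c -0.32, adjusted p = 0.0324). Hsd17b10, the third of them, is X-linked and had 0.02 and -0.14.

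The nuclear regulators split in direction in WT mice. Pprc1, a serum-responsive coactivator of the PGC-1 family, had 247 (WT05), 169.8 and 187 CPM in WT DN3 and 103, 109, 128 and 127 CPM in WT DN4 cells, without overlap (log2 -0.81, SE 0.15, adjusted p = 0.00694). Its KO levels overlapped, at 130.0, 167 and 184 CPM in DN3 and 77.6, 131 and 155 CPM in DN4 cells (-0.42, SE 0.25, adjusted p = 0.279); with the mouse as a block the KO value was -0.47 with an adjusted p of 0.0106. Without the block it was -0.22 when the KO45 DN4 library was left out and -0.66 when the KO51 DN4 library was. Ppargc1b, the coactivator PGC-1β, had 27.8 (WT05), 13.3 and 16.7 CPM in WT DN3 and 9.07, 9.84, 12.3 and 9.01 CPM in WT DN4 cells, without overlap (-0.93, SE 0.26, adjusted p = 0.0353), and without the WT05 DN3 library the value was -0.60 and no longer called, nor was it called with the mouse as a block; the call was lost in 5 of the 7 fits that left out a library. In KO mice it had 8.81, 12.5 and 13.7 CPM in DN3 and 8.44, 9.80 and 12.7 CPM in DN4 cells, which overlapped (-0.20, SE 0.25, adjusted p = 0.616).

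Esrra, the orphan nuclear receptor that PGC-1 coactivators act on, was higher in DN4 cells of WT mice. It had 16.4 (WT05), 22.0 and 25.5 CPM in WT DN3 and 33.9, 30.1, 30.6 and 46.9 CPM in WT DN4 cells (log2 0.69, SE 0.21, adjusted p = 0.0498). In KO mice it had 27.1, 25.6 and 23.8 CPM in DN3 and 29.1, 34.5 and 32.2 CPM in DN4 cells (0.30, SE 0.14, adjusted p = 0.177). Neither genotype's stages overlapped, but the WT call sat at the threshold and was lost when any 1 of the 7 libraries was left out. Nrf1 had -0.08 in WT and 0.27 in KO mice, the latter called only with the mouse as a block (adjusted p = 0.0334), and Gabpa had 0.06 and -0.00. Neither Nrf1 nor Gabpa was called without the block.

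Within each of the 6 mice with both stages, 3 members were higher in DN4 than in DN3 cells in all 6 mice (Polg, Tk2 and Esrra; 7.14% against 21.9% of all 13361 genes tested) and 15 were lower in all 6 (35.7% against 17.6%). The log2 difference within a mouse ran from 0.88 to 1.42 for Polg, from -1.59 to -0.50 for Tefm and from -0.90 to -0.40 for Twnk. In KO mice 28 members (66.7% against 30.8% of all genes) were lower in DN4 cells of all 3 mice, and in WT mice 17 members were (40.5% against 23.9%).

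**Figure D4:**
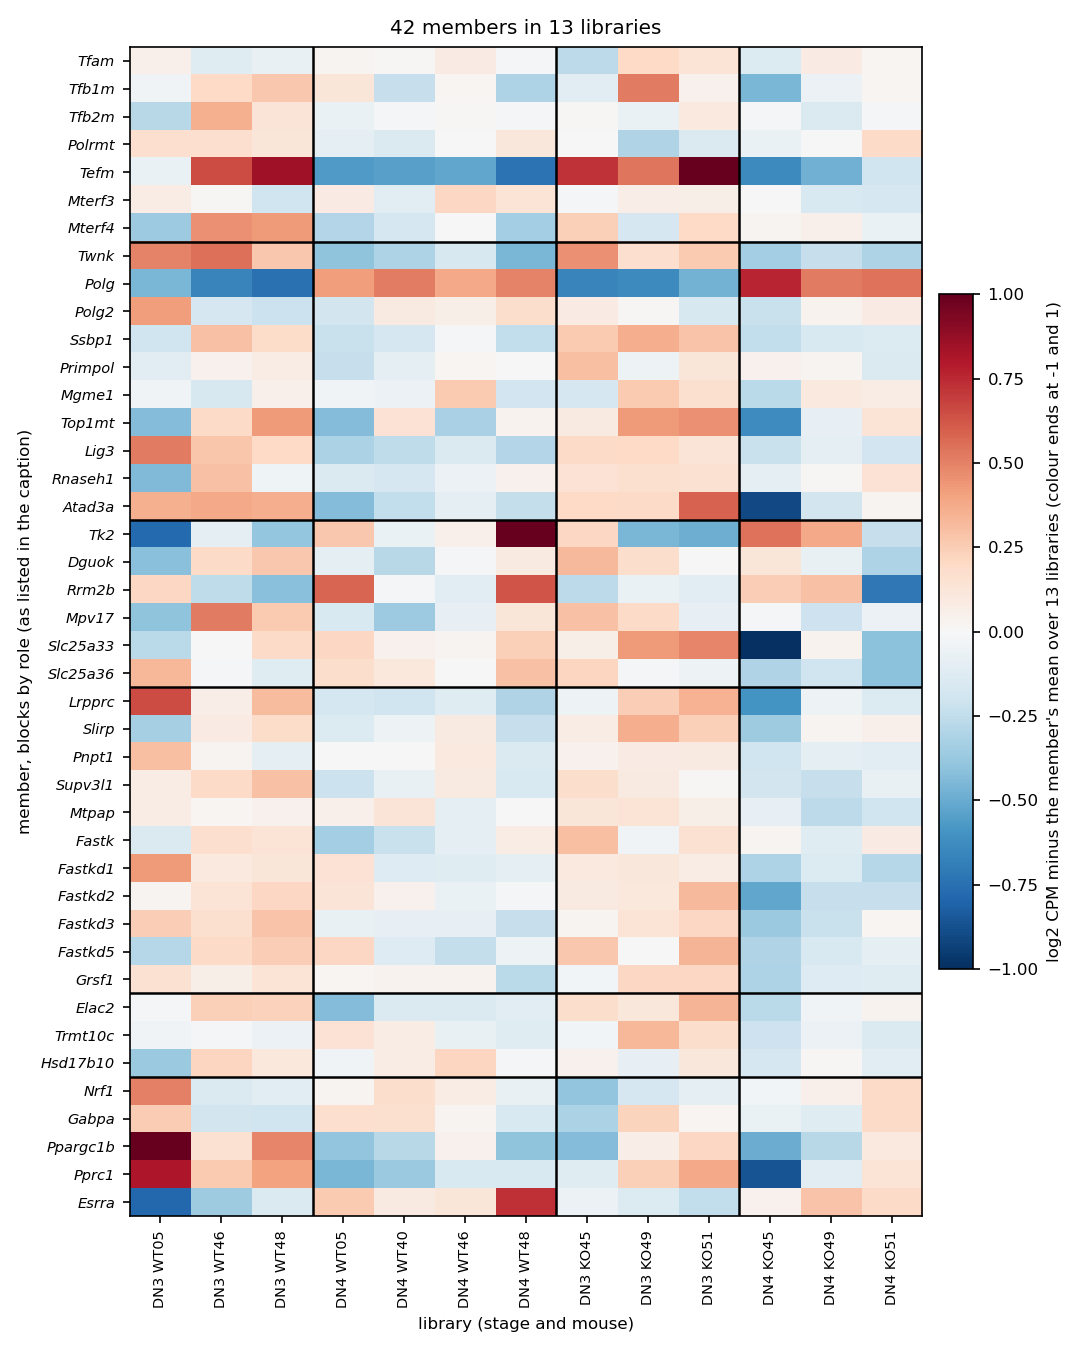
Level of each of the 42 members in each of the 13 libraries, as log2 CPM minus the member's mean (colour scale ends at -1 and 1); black lines part the groups and the roles, which from the top are transcription, replication and nucleoid, nucleotide supply, RNA stability and decay, tRNA end processing and nuclear regulators. Tefm and Twnk are red in DN3 and blue in DN4 columns of both genotypes except for a pale Tefm cell in DN3 WT05, Polg is the reverse, and no block of rows parts WT from KO.

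The genotypes were compared next, within each stage. In DN4 cells 0 of the 42 members differed between KO and WT, against 0.0535% (7) of all 13084 genes tested (edgeR quasi-likelihood test, adjusted p under 0.05). At an unadjusted p under 0.05 there were 2 members (4.76%), against 5.46% of all genes, and DESeq2 and limma-voom also called 0 members. In DN3 cells 0 members differed, against 0% of all 12105 genes, and 1 member (2.38%) had an unadjusted p under 0.05, against 1.39% of all genes. The members' median log2 difference was -0.01 in DN4 and 0.01 in DN3 cells.

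The size of what the DN4 comparison could have missed is given by the intervals. The log2 differences ran from -0.51 (Slc25a33) to 0.23 (Mterf4), and 40 of 42 of the 95% intervals contained 0. For Tfam the difference was -0.00 with an interval from -0.20 to 0.19, for Polrmt 0.10 (-0.14 to 0.34), for Tfb2m -0.00 (-0.25 to 0.25), for Twnk 0.07 (-0.19 to 0.32) and for Polg 0.19 (-0.03 to 0.42). Over the 10 mtDNA-encoded protein-coding genes that passed the filter the median log2 difference was -1.50, and all 10 were lower in KO cells. Of these, 3 passed the test (mt-Co1, mt-Cytb and mt-Nd5). Counts were few for mt-Co2 (6 to 41 in a library), mt-Atp6 (3 to 24) and mt-Co3 (4 to 41). The 95% intervals of all 42 members lay above -1.50, the lowest bound being -1.10 for Slc25a33. The median over all genes tested was 0.00. How many of all genes had such intervals was not counted, so these counts are not a trait particular to the members. The mtDNA-encoded median was used without an interval of its own, and that of mt-Nd6 alone ran from -2.16 to 0.08. With each of the 7 libraries left out in turn, the mtDNA-encoded median ran from -1.71 to -1.37 and all 42 intervals lay above it, but mtDNA-encoded genes were called in 1 of the 7 fits (4 without WT48) and 0 were called in the other 6. In DN3 cells the mtDNA-encoded median was -1.04 with 0 of 10 genes called, and the intervals of 41 of 42 members lay above it, the exception being Ppargc1b with a bound of -1.40. These DN3 values rested on the WT05 library: without it the mtDNA-encoded median was -0.34, with 1 of 10 genes not lower in KO, and the intervals of 23 of 42 members lay above it. With library totals the median was -0.60 and the number was 34 of 42.

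**Figure D5:**
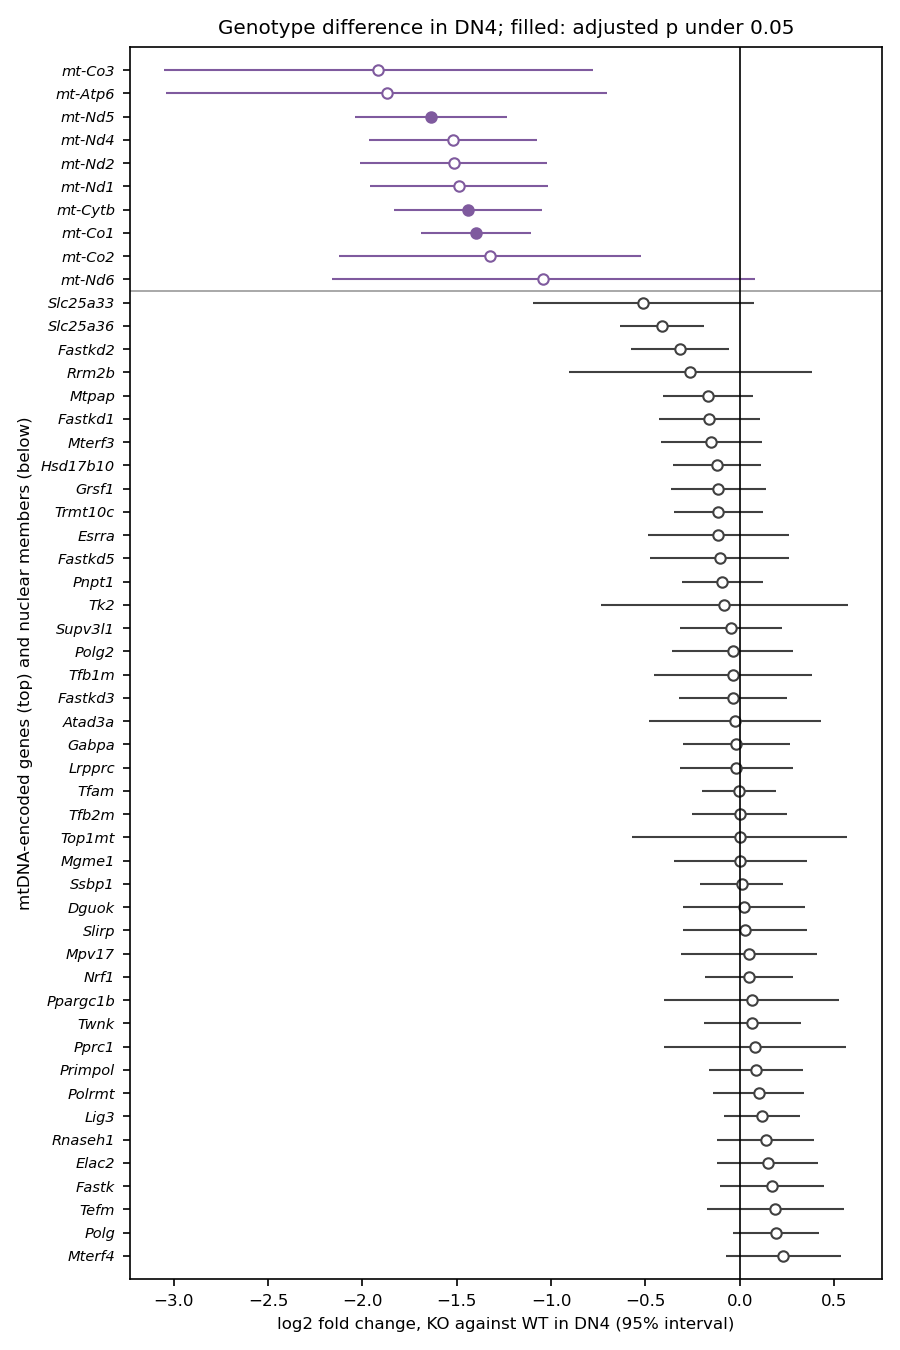
Log2 fold change of KO against WT in DN4 cells with 95% intervals for the 10 tested mtDNA-encoded protein-coding genes (purple, top) and the 42 nuclear members (grey, below), each ordered by value; filled points have an adjusted p under 0.05. The mtDNA-encoded genes lie between -1.92 and -1.04 and the members between -0.51 and 0.23. The -1.92 is that of mt-Co3, which held 4 to 41 counts in a library.

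The groups did not overlap for 4 of 42 members (9.52%) in DN4 cells, against 7.08% of all genes tested, and for 1 of 42 (2.38%) in DN3 cells, against 6.44%. In DN4 cells Polg was higher in all KO libraries, at 162 to 192 CPM against 147 to 161 CPM, and Slc25a36, Fastkd2 and Fastkd1 were lower in all of them. Slc25a36, a carrier of pyrimidine nucleotides, had 49.9, 53.5 and 46.2 CPM in KO and 69.5, 66.0, 61.3 and 75.3 CPM in WT DN4 cells, with the smallest p of the members (log2 -0.41, SE 0.10, unadjusted p = 0.0026 in the edgeR fit, adjusted p = 0.712). Its DN3 levels overlapped, at 71.3, 60.5 and 59.5 CPM in KO and 77.4, 60.6 and 56.4 CPM in WT cells. Fastkd2 was at 22.6 to 27.5 CPM in KO and 30.9 to 35.4 CPM in WT DN4 cells (-0.31, SE 0.11, adjusted p = 0.883). In DN3 cells Polrmt was lower in all KO libraries, at 50.2 to 61.6 CPM against 67.2 to 69.7 CPM (-0.30, SE 0.13, edgeR unadjusted p = 0.044, adjusted p = 1), whereas its DN4 difference was 0.10. Mterf4, with the highest DN4 difference, had 18 to 19.5 CPM in KO and 15.4, 16.8, 18.7 and 14.9 CPM in WT DN4 cells, which overlapped (0.23, SE 0.13, adjusted p = 0.894). In DN3 cells the regulators Ppargc1b (-0.70, SE 0.31, adjusted p = 1) and Pprc1 (-0.33, SE 0.19, adjusted p = 1) had the next smallest p after Polrmt; the WT05 library had the highest WT level of both genes.

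Whether the stage change itself differed between the genotypes was tested as an interaction over all 13 libraries. It was called for 0 of 42 members, against 0% of all 13361 genes, and 5 members (11.9%) had an unadjusted p under 0.05, against 3.59% of all genes. These were Slc25a33 (log2 -0.86, SE 0.36), Slc25a36 (-0.43, SE 0.18), Fastkd2 (-0.39, SE 0.17), Polrmt (0.37, SE 0.15) and Trmt10c (-0.35, SE 0.16), each with an adjusted p of 1 in the edgeR fit. Slc25a33, the other pyrimidine carrier, had 6.59, 8.50 and 8.91 CPM in KO DN3 and 3.07, 6.49 and 4.77 CPM in KO DN4 cells, and 5.26, 6.36 and 7.26 CPM in WT DN3 and 7.32, 6.53, 6.46 and 7.50 CPM in WT DN4 cells. Within a mouse its log2 difference was -1.10, -0.39 and -0.90 in KO and 0.48 (WT05), 0.02 and 0.05 in WT mice, at levels of 18 (DN3 WT05) to 94 counts per library. Neither stage comparison called it without the block (adjusted p = 0.808 in WT and 0.140 in KO mice). For Tefm the interaction was -0.06 (SE 0.30), for Twnk 0.17 (SE 0.16) and for Polg 0.12 (SE 0.15).

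The mtDNA-encoded share of counts, over its 13 protein-coding genes, gave the measure against which the members were set. It was 0.592 ± 0.0787% in KO (SD, n = 3) and 1.61 ± 0.216% in WT DN4 cells (SD, n = 4), a difference of -1.01 percentage points (exact permutation test, two-sided, p = 0.0286, the smallest that 3 against 4 allows). In DN3 cells it was 1.02 ± 0.173% in KO and 1.53 ± 0.367% in WT (SD, n = 3 each), which the exact permutation test cannot separate below p = 0.1, the value found. Counted outside the ribosomal RNA-like genes, the DN3 share of WT05 was 2.96% in place of 1.94%, and the DN3 difference was -0.849 in place of -0.511 percentage points, with the same p. Without that library the DN3 difference was -0.304 points. Within a mouse, the log2 change of this share from DN3 to DN4 was -0.99, -0.56 and -0.78 in KO and -0.23 (WT05), 0.35 and 0.06 in WT mice, and that of WT05 was -0.83 outside the ribosomal RNA-like genes. In the same order of mice the change of Tfam was 0.12, -0.12 and -0.12 in KO and -0.02, 0.20 and 0.06 in WT mice, that of Polrmt -0.06, 0.29 and 0.34 and -0.26, -0.17 and -0.00, and that of Tefm -1.36, -1.01 and -1.19 and -0.50, -1.17 and -1.59. Tefm was lower in DN4 cells of the mice in which the share fell and of those in which it did not. In the edgeR fit of KO mice, 8 of 8 mtDNA-encoded genes tested were lower in DN4 cells (median log2 fold change -0.85). Of these, 6 were called, against 7.34% of all genes called lower. In WT mice 9 of 10 were lower (median -0.38) and 0 were called, with the WT05 library included. The members' medians were -0.28 in KO and -0.15 in WT mice. Whether these changes are linked was not tested. No correlation across libraries is given, because the genotypes form separate clusters of 6 and 7 libraries in which the stages share mice.

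The members together took 0.243 ± 0.00562% of counts in KO DN3, 0.213 ± 0.0107% in KO DN4 (SD, n = 3 each) and 0.211 ± 0.00818% in WT DN4 cells (SD, n = 4). In WT DN3 cells the share was 0.245% in WT46 and WT48 and 0.139% in WT05, the library with 34.4% ribosomal RNA-like counts. At DN4 the members' share therefore overlapped between the genotypes, at 0.203 to 0.224% in KO and 0.202 to 0.222% in WT mice.

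Other genes of the same pathways were described from a list of 40 that are not members, of which 39 were tested: modifiers of mitochondrial tRNA and ribosomal RNA, further RNA-binding proteins and the remaining PGC-1 and GABP subunits. In WT mice 0 of 39 were higher and 6 were lower in DN4 cells, against 13.4% and 9.43% of all genes. The 6 were 1110008L16Rik, which encodes the nuclease subunit of RNase P, Mrm3, Mto1, Ptcd3, Rcc1l and Tbrg4. The median log2 fold change was -0.20. In KO mice 0 were higher and 1 was lower (1110008L16Rik), against 11.2% and 7.34% of all genes, with a median of -0.23. Between the genotypes 0 of 39 differed in DN3 or in DN4 cells in the edgeR fits, with medians of 0.01 and 0.06. Of 16 genes that supply nucleotides to the cytosol and nucleus, 1 was higher and 1 lower in WT and 1 higher and 2 lower in KO mice between the stages. The shares over all genes are those just given. Between the genotypes 0 of the 16 differed. Myc, a general driver of biosynthetic genes, fell in both genotypes (log2 -0.98 in WT, adjusted p = 0.00755, and -0.96 in KO mice, adjusted p = 0.0248), as Tefm, Twnk and Lig3 did; its part in their change was not tested.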

How the data were processed

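RNA of sorted DN3 and DN4 thymocytes was isolated with RNeasy columns, made into TruSeq stranded mRNA libraries and sequenced on a HiSeq instrument. Per the labels and the study's methods, reads were trimmed with Cutadapt, aligned to mm10 with STAR and counted per gene with featureCounts; versions and the strand setting are not given in the sources used here. The deposited values are raw whole-number read counts, as the authors made them, with 1 column for each of the 13 libraries. Gene names came from GENCODE M21, which held 47310 of the 47937 identifiers. Genes with too few counts were removed by filterByExpr (minimum count of 10), libraries were scaled by TMM, and a comparison used only the libraries of its own groups, with edgeR 4.0.16 (quasi-likelihood, Benjamini-Hochberg over all genes tested, threshold 0.05) in R 4.3.3; the interaction used all 13 libraries. The scripts were tested on simulated data first. CPM values are TMM-scaled, and RPKM values divide them by the summed exon length. The mtDNA-encoded share was compared by exact permutation tests.

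Alternatives were DESeq2 1.42.0 and limma-voom (limma 3.58.1), DESeq2 size factors, library totals, other filters, a threshold of 0.1, the mouse as a block and each library left out in turn. The members and all lists were chosen with earlier results of these data known. Levels in every library were given for Tfam, Polrmt, Tfb2m, Twnk and Polg, for every member called between the stages in the fit without the block and for the members with the smallest p between the genotypes, except Mterf4, of which only the groups a result rests on are given; Tk2 was added after its values were seen. Libraries of different mice were the replicates; as the labels do not say whether mice were sorted on separate days, p-values measure the spread between these samples. The stages of a mouse shared an animal, and their deviations from the group means correlated (0.123 to 0.495 in the 6 mice over 13361 genes). No libraries were duplicates (smallest chi-square per degree of freedom 6.19). The count depth limits each member to the precision its standard error gives. Promoter windows were taken from RefSeq (GRCm38.p6); 7 members (Mterf3, Top1mt, Rnaseh1, Atad3a, Rrm2b, Mtpap and Ppargc1b) had none. Some genes of the marker lists are not reported here, and the lists were summed without them.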

Additional observations from a re-analysis of the deposited data

Results flagged for a closer look

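In 4 of 43 groups of 4 libraries tested, all of DN4 cells of WT mice, 1 library lay apart from the other 3 by more than Dixon's 95% critical value, which chance alone gives in about 1 in 20 groups. Fastkd1 was at 27.5 CPM in mouse WT05 against 22.8 to 23.4 CPM (ratio 0.873), and Elac2 was at 49.6 CPM in the same mouse against 60.4 to 62.1 CPM (ratio 0.866). Fastkd3 was at 27.3 CPM in mouse WT48 against 30.3 to 30.4 CPM (ratio 0.955), and Grsf1 at 72.9 CPM in the same mouse against 88.7 to 89.95 CPM (ratio 0.929). Slc25a33 had a lower level in DN4 than in DN3 cells in all 3 KO mice (log2 difference -1.10, -0.39 and -0.90) and a higher one in all 3 WT mice (0.48, 0.02 and 0.05). The 0.48 is that of WT05, whose DN3 library held 18 counts of this gene, and the WT stage comparison was not called (edgeR adjusted p = 0.808). The test of the difference itself gave an interaction of -0.86 on the log2 scale with an edgeR unadjusted p of 0.0329 and an adjusted p of 1.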

How the results depend on the processing

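The counts of members that differed between the genotypes, and of members with an interaction, were 0 under every alternative run, including, chosen after seeing the data, a fit without the 2 WT mice that lack Xist. Between the stages in WT mice, 2 members were higher, and 1 with library totals, with at least 10 counts in every library, with limma-voom and, as lowest and highest, with each library left out (1 to 1); 8 were lower, and 0 with library totals, 5 with the mouse as a replicate block and 5 to 9 with a library left out. With library totals fewer of all genes were called in the WT stage comparison as well. Library totals moved the median of all genes by 0.19 on the log2 scale in the WT stage and by 0.24 in the DN3 genotype comparison, where the WT05 DN3 library had a TMM factor of 0.577. In KO mice 1 member was higher, and 3 with the mouse as a replicate block; 5 were lower, 9 at an adjusted p of 0.1, 15 with the block and 3 to 5 with a library left out. The pairing of stages by mouse changed no other count. The interaction with the mouse as a replicate block was called for 0 members. No paired analysis was possible between genotypes because no mouse had both. The DN4 difference in the mtDNA-encoded share was -1.12 to -0.951 points with a library left out, with exact p of 0.0667 to 0.1, the smallest those sizes allow. Tefm, Twnk and Polg were called with each library left out in both genotypes. Over all alternatives, the values of single members and the medians gave 823 that kept their side of the threshold and direction, 51 that lost a call, 16 that gained one and 24 that changed sign without a call or moved by more than the replicate spread; none changed sign with a call.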
